A study of Mus musculus with 10 samples.

Results

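Promoterless loops were the chromatin loops whose anchors both lacked the promoter of a protein-coding gene. Hi-C reports how often pairs of DNA segments are joined after crosslinking, and a loop is here a pair of 10 kb bins listed by the authors as in contact. A loop was counted as promoterless when it lay on an autosome, spanned 20 to 490 kb and had no transcription start site (TSS, the 5′ end of a gene) of a protein-coding gene of the GENCODE M21 annotation in either anchor bin. The 5 loop lists held 175306 such loops, at 87752 distinct bin pairs, of 301424 lines in all. The lists came from bone marrow-derived macrophages of wild type C57BL/6 mice, females aged 2 to 3 months, grown with M-CSF at 20 ng/ml and treated from day 6. M0[CTR] cells had neither IL-4 nor IFNG, M2[IL-4] cells had 24 h of IL-4 at 20 ng/ml, and M2p[pIL-4] cells had the same IL-4 followed by washing and 24 h of rest. IFNG cells were given IFNG at 20 ng/ml for 3 h, and pIL-4 + IFNG cells the same dose and time after IL-4 and rest. The groups did not differ in genotype. Each group of 2 samples was represented by 1 list, in which both replicates appeared to be merged, so no difference between conditions below has a replicate check. The contact counts hold no RNA, so the macrophage label could not be checked against expression.

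Contacts between parts of the genome without promoters are of more than one kind. Some are made by CTCF, a zinc-finger protein that stops loop extrusion by cohesin, and these tend to form between CTCF sites that point toward each other. Others join enhancers to each other, or hold a gene between insulating anchors without touching its promoter. In macrophages, IL-4 acts through the transcription factor STAT6, and both IL-4 and IFNG alter many distal elements.

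The loops in the same bins of every list that stood highest above their span carried CTCF matches that faced each other. The loop around Spred1, an inhibitor of Ras signalling, joined chr2:116890001-116900000 to chr2:117230001-117240000 and held 104 contacts under M0[CTR], 108 under M2[IL-4], 107 under M2p[pIL-4], 109 under IFNG and 100 under pIL-4 + IFNG. The loop around Irf2bp2, a corepressor that binds IRF2, joined chr8:126490001-126500000 to chr8:126920001-126930000, and the one around the stress-response gene Gadd45b joined chr10:80920001-80930000 to chr10:80990001-81000000. The loop with the highest ratio of IFNG to M0[CTR] joined chr13:52250001-52260000 to chr13:52620001-52630000 in Syk, a tyrosine kinase of immune receptors. The stronger of the loops found only in both IFNG lists joined chr5:140540001-140550000 to chr5:140740001-140750000 and enclosed Lfng, which modifies Notch receptors. One facing pair of matches is shown for each of these loops, chosen among all matches in its anchors. At the Irf2bp2 and Lfng loops both anchors held matches on both strands, so pairs that face away were present too. The right anchor of the Gadd45b loop also held a plus-strand match. At the Spred1 and Syk loops all matches faced each other. Each line gives, on its own strand in the 5′ to 3′ direction, the match in capitals with 8 flanking bases on each side in lower case, and its position is that of the capitals. The letters were read from the GRCm38 reference genome (mm10), not from the cells.
Spred1 loop, left anchor, plus strand, chr2:116897047-116897060: cttcatgaACAGCAGAGGGCACtgttcctc
Spred1 loop, right anchor, minus strand, chr2:117231441-117231454: ccgtgaagCCACTAGGGGGCGCcacaaccc
Irf2bp2 loop, left anchor, plus strand, chr8:126497666-126497679: gccagtgaCCACCAGATGGCACtctgtccc
Irf2bp2 loop, right anchor, minus strand, chr8:126921075-126921088: tcactgggCCACTTGATGGCAGtgtgagaa
Gadd45b loop, left anchor, plus strand, chr10:80928669-80928682: tcatgaggCCACCAGGTGTCGCcgccgcgc
Gadd45b loop, right anchor, minus strand, chr10:80995418-80995431: acgtgtgaCCACTAGGGGGCAGgagagatc
Syk loop, left anchor, plus strand, chr13:52255878-52255891: caaggaggCCAGCAGAGGGCGCctgctata
Syk loop, right anchor, minus strand, chr13:52624240-52624253: aggtgaggCCACCAGGGGGCACtgtggttc
Lfng loop, left anchor, plus strand, chr5:140540281-140540294: gacactgtCCAGTAGGGGGCAGcctcgact
Lfng loop, right anchor, minus strand, chr5:140742063-140742076: agtatagaCCAGTAGGGGGCAGgatgctaa

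By the TSS of the anchor bins alone, promoterless loops were the most numerous kind in each list. M0[CTR] held 30873 of them, M2[IL-4] 33647, M2p[pIL-4] 39995, IFNG 31767 and pIL-4 + IFNG 39024. They made up 69.1% of the loops of these spans under M0[CTR] (95% Wilson interval 68.7 to 69.6) and 69.7% under M2p[pIL-4] (69.4 to 70.1), and the other lists lay between these values. This share depends on the rule. With neighbouring bins also free of a TSS it was 37.7% under M0[CTR] and 38.6% under M2p[pIL-4]. With the TSS of genes of every annotated type it was 51.4% and 51.8%. Intervals here and below cover counting error only, and neighbouring loops are not independent. Of all bin pairs at the same distances, 85.9% lacked a TSS in both bins, so loops without promoters were fewer than the makeup of the genome gives. The numbers exceeded that of M0[CTR] by 8.99% under M2[IL-4], 29.5% under M2p[pIL-4], 2.90% under IFNG and 26.4% under pIL-4 + IFNG. The excess was seen on 18 of 19 autosomes under M2[IL-4], on 15 of 19 under IFNG and on 19 of 19 in both groups rested after IL-4. The sequencing depth behind each list is unknown, so condition and depth cannot be told apart in this excess.

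Promoterless loops were long and had few contacts. Their median span was 170 or 180 kb, against 120 or 130 kb for loops with 1 promoter anchor and 90 kb for loops with promoters at both anchors. The share of loops without promoters rose with span in each list. In M0[CTR] it was 56.6% at 20 to 90 kb, 68.5% at 100 to 190 kb, 76.3% at 200 to 290 kb and 82.0% at 300 to 490 kb. The median count was 31 contacts in each list, while promoter to non-promoter loops had 38 and promoter to promoter loops 44 to 46. Strength, the count divided by the median count of all loops at that span in the same list, takes span out of this comparison. The median strength of promoterless loops was 1.00 in each list. Minus that of promoter to non-promoter loops it was -0.0215 on average, and lower in 5 of 5 lists (SD of the difference 0.00188). The exact two-sided sign-flip test over the 5 lists gave p = 0.0625, the smallest that 5 lists allow, and an adjusted p of 0.0682 over 12 such comparisons.

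**Figure D1:**
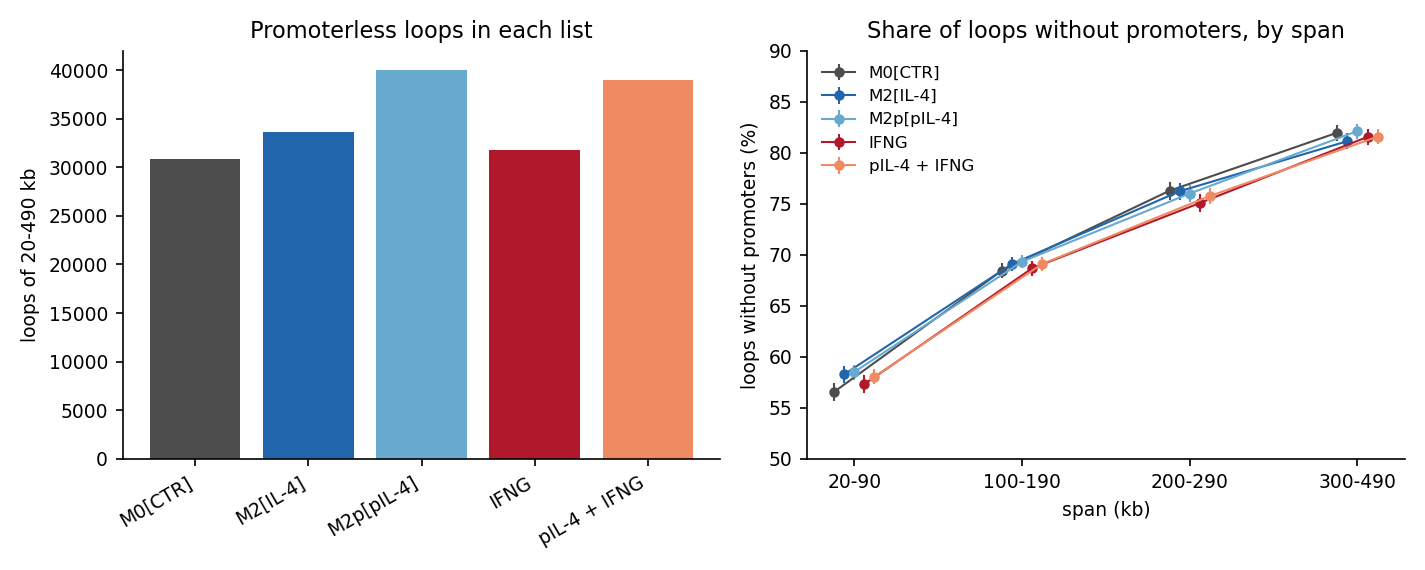
Left, number of promoterless loops of 20 to 490 kb in each of the 5 lists (bars). Right, share of all loops in 4 classes of span that lacked promoters (percent, points with 95% Wilson intervals, 1 colour per list, shifted sideways to be seen, axis from 50%). The share climbed from between 56.6% and 58.5% at the shortest spans to between 81.1% and 82.1% at the longest.

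Anchors without promoters still lay close to genes. In M0[CTR], 59.9% of them (59.5 to 60.3) overlapped a protein-coding gene and 46.5% an exon, and over the lists these shares ran from 59.7% to 60.1% and from 46.0% to 47.0%. Of all sequenced bins without a TSS, 42.6% overlapped a protein-coding gene and 24.5% an exon. The median distance from an anchor to the nearest TSS was between 28.5 and 29.5 kb over the lists, against 87.2 kb for all bins without a TSS. The TSS of a long non-coding RNA lay in 6.06% to 6.27% of anchors and in 3.15% of these bins. Anchors were also richer in G and C, at 45.9% to 46.1% against 41.6%. A TSS of a protein-coding gene lay between the anchors of most promoterless loops, and 19.2% under IFNG to 22.7% under M2p[pIL-4] enclosed none. Loops with 1 promoter anchor enclosed none in 30.2% to 32.8% of cases, and this share was higher than that of promoterless loops in 5 of 5 lists (exact sign-flip p = 0.0625). Promoterless loops are also longer, with a median span of 174 against 122 kb on average over the lists. The shares were not compared at equal spans, so span and kind of loop cannot be told apart here. A listed promoter loop lay within 1 bin at both ends for 27.7% to 28.8% of promoterless loops. When touching bin pairs were merged into sets, 46.5% to 48.6% of promoterless loops lay in sets without a promoter-anchored pair. The rest shared a set with such a pair. Those that touched no other listed pair made up 18.5% to 19.7%.

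About 1 in 10 promoterless loops had both anchors within the same gene. The share was 10.6% under M0[CTR] and 9.76% under IFNG at the lowest, and gene models under 1 Mb held 9.47% and 8.76%. Gm20388, an annotated model of 4435 kb on chromosome 8 that overlaps many other genes, held the most, from 283 to 372 loops per list. The model of Fgfr2 as annotated runs over 2961 kb, and it held 42 to 70. Among genes of ordinary length, Rasgef1b, a guanine nucleotide exchange factor, held 48 under M0[CTR], 41 under M2[IL-4], 57 under M2p[pIL-4], 45 under IFNG and 37 under pIL-4 + IFNG. Megf11, a transmembrane protein with EGF-like repeats, held 17 under M0[CTR], 44 under M2[IL-4], 27 under M2p[pIL-4], 19 under IFNG and 20 under pIL-4 + IFNG. M2[IL-4] thus stood above the other lists at Megf11. Both genes were named after their values were seen.

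CTCF consensus matches at promoterless loops faced each other more often than they faced away. A match was a stretch of 14 bases that differed from the CTCF core consensus at 1 base at most, searched on both strands, and a match is a likeness of letters and not a bound site. At least 1 match lay in 42.8% of promoterless anchors under M0[CTR], in 41.5% to 42.9% over the 5 lists and in 20.8% of all bins without a TSS. Convergent pairs, with a plus-strand match on the left and a minus-strand match on the right, were present in 11.2% of promoterless loops under M0[CTR] (10.9 to 11.6), 10.8% under M2[IL-4], 10.1% under M2p[pIL-4], 11.4% under IFNG and 10.5% under pIL-4 + IFNG. Divergent pairs, which point away from each other, were present in 2.78% to 3.05%. Of all bin pairs without a TSS at the same distances, 1.39% had a convergent pair and 1.41% to 1.42% a divergent pair. Where each anchor had matches on 1 strand only, 49.3% to 51.4% of promoterless loops were convergent, 40.8% to 42.6% tandem and 7.84% to 8.29% divergent. This convergent share was above that of promoter to non-promoter loops by 1.72 percentage points on average, in 5 of 5 lists (SD 1.06, exact sign-flip p = 0.0625). Against promoter to promoter loops the difference was 0.983 points (SD 1.28), with 3 of 5 lists higher (exact sign-flip p = 0.25).

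Convergent pairs were more frequent at strong loops. Of the strongest 10% of promoterless loops, 21.9% to 23.8% had a convergent pair, and of the weakest 10%, 7.43% to 9.35%. The pairs called in the same bins of all 5 lists had one in 19.7% (18.9 to 20.6, of 8281). Loops with no match in any other list had one in 5.18% to 6.83%. The share was lower at long spans, with 12.7% at 20 to 90 kb and 8.90% at 300 to 490 kb under M0[CTR]. Matches to a STAT6-type motif, TTC and GAA with any 4 bases between, were searched without allowing a mismatch. They numbered 2.68 to 2.70 per promoterless anchor and 3.16 per bin without a TSS. Loops gained with IL-4 had 2.85 per anchor, below that level of the genome as well. Loops gained with IFNG had 2.89, and loops of M0[CTR] found neither with IL-4 nor after rest had 2.94. The motif numbers were not adjusted for the higher G and C content of anchors.

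**Figure D2:**
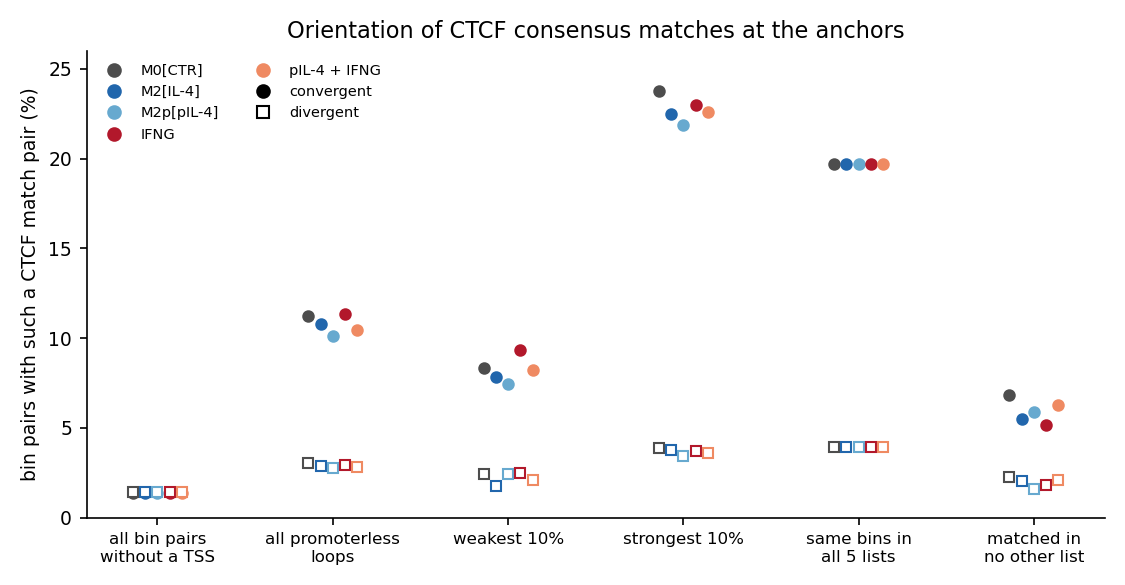
Share of bin pairs with a convergent (filled circles) or divergent (open squares) pair of CTCF consensus matches (percent), for all bin pairs without a TSS at the same spans, all promoterless loops and 4 subsets of them. Each list has its colour. Convergent pairs exceeded divergent pairs in each set of loops and most in the strongest 10%, while the genome had both at about 1.4%.

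Most promoterless loops had a counterpart in the other lists, though less often in the same bins. A loop was matched to another list where each of its anchors had a counterpart no farther than 25 kb, that is 2 bins. By this rule 84.3% of the promoterless loops of M0[CTR] were in all 5 lists, 81.6% of those of M2[IL-4], 78.7% of M2p[pIL-4], 83.4% of IFNG and 78.9% of pIL-4 + IFNG. In the same bins, 20.7% to 26.8% were. Promoterless loops were less often in all 5 lists than promoter to non-promoter loops, with a mean difference of -3.00 percentage points (SD 0.602), lower in 5 of 5 lists (exact sign-flip p = 0.0625, adjusted p 0.0682). Against promoter to promoter loops the difference was -2.48 points (SD 0.638), again lower in 5 of 5 lists (p = 0.0625 by the same exact test). A loop shared by all lists is counted from each of them. The 5 differences of this measure are thus not separate observations, and neither their common sign nor p measures agreement of independent lists. Of the 87752 distinct bin pairs, 47466 or 54.1% were called in 1 list, and 8281 or 9.44% in all 5. The median strength was 0.886 in the former and 1.23 in the latter. With the loops of M0[CTR] split into 4 classes of strength, 75.6% of promoterless loops in the weakest class were in all 5 lists within 25 kb, and 95.3% in the strongest. Promoter to non-promoter loops had 78.9% and 95.5% in these classes, so the gap was small among strong loops. Under IFNG the strongest class had 95.4% of promoterless and 94.7% of promoter to non-promoter loops in all 5 lists. Sharing was lowest at the longest spans. Of the promoterless loops of M0[CTR], 86.1% were in all 5 lists at 20 to 90 kb and 78.7% at 300 to 490 kb. Promoterless loops are longer, and sharing was not compared between kinds at equal spans, so span and kind of loop cannot be told apart here.

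**Figure D3:**
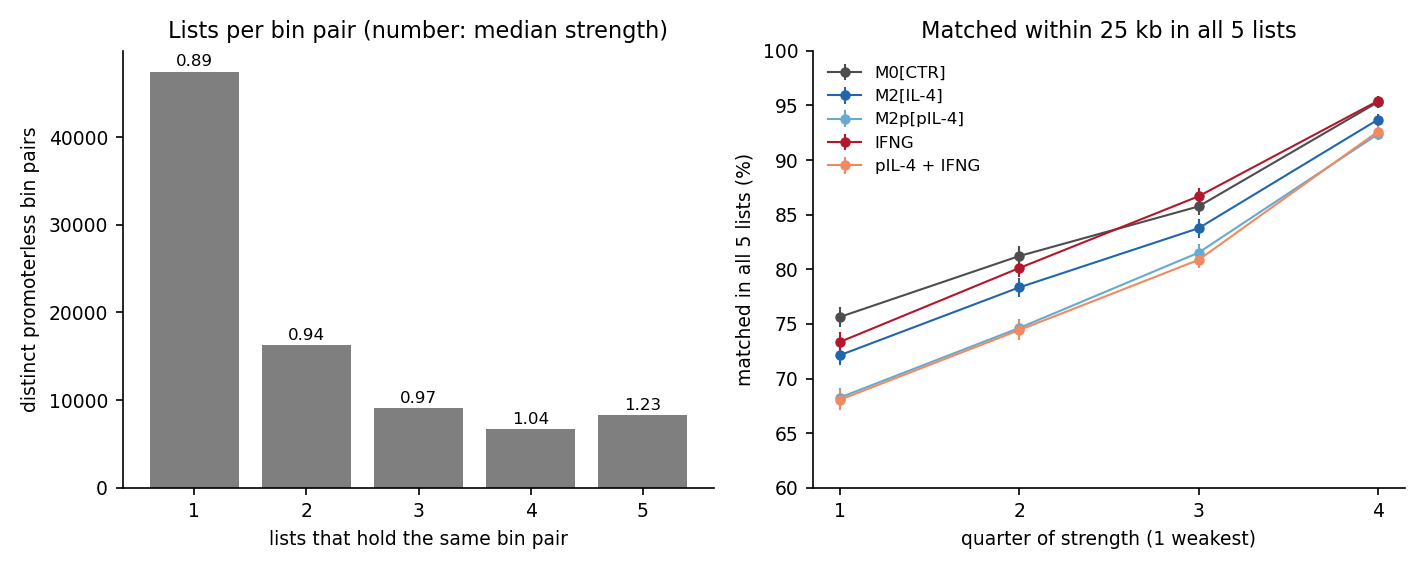
Left, number of distinct promoterless bin pairs by how many of the 5 lists held the same pair (bars), with the median strength above each bar. Right, share matched within 25 kb in all 5 lists (percent, 95% Wilson intervals) by 4 classes of strength within each list (quartiles over its loops), on an axis from 60%. Sharing rose with strength in each list, and bin pairs of 1 list were the weakest.

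Loops gained and lost were those of 1 list without a match in the other list of a comparison. With 1 list per group, they were not tested as effects of a cytokine. M2[IL-4] held 3751 promoterless loops without a match under M0[CTR], 11.1% of its promoterless loops (10.8 to 11.5), against 13.5% of all autosomal loops of any span and kind. In M2p[pIL-4] 4896 or 12.2% had no match under M0[CTR] (all loops 14.0%), and 4421 or 11.1% none under M2[IL-4] (all loops 12.8%). IFNG held 3321 or 10.5% without a match under M0[CTR] (all loops 12.9%), and pIL-4 + IFNG 3583 or 9.18% without one under M2p[pIL-4] (all loops 11.4%). The shares of all loops also hold shorter and longer spans and cannot be read against the promoterless ones. At the same spans, loops with 1 promoter anchor were gained in 9.17%, 9.80%, 8.64%, 8.89% and 7.08% of cases in the same order, and loops with promoters at both anchors in 8.42%, 11.5%, 9.66%, 9.01% and 8.36%. Promoterless loops had the highest share in each comparison, and the difference was not tested. They are also longer within this range of spans, so span and kind of loop cannot be told apart. In the other direction 2632 or 8.53% of the promoterless loops of M0[CTR] had no match under M2[IL-4] (all loops 10.7%, loops with 1 promoter anchor 6.89%), 1999 or 6.47% none under M2p[pIL-4] (8.82% and 5.39%) and 2990 or 9.68% none under IFNG (11.9% and 8.03%). Of the promoterless loops of M2[IL-4], 2586 or 7.69% had none under M2p[pIL-4] (10.0% and 6.01%). Of those of M2p[pIL-4], 3743 or 9.36% had none under pIL-4 + IFNG (11.3% and 7.08%).

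By their calls, 1799 promoterless loops were Transient (M2[IL-4] but neither M0[CTR] nor M2p[pIL-4]), 1952 were Memory (absent from M0[CTR], found with IL-4 and again after rest) and 2748 were Primed (M2p[pIL-4] alone of these 3 lists). These were 5.35%, 5.80% and 6.87% of the promoterless loops of their list, and the same classes held 4.00%, 5.16% and 5.05% of promoter to non-promoter loops. Of the promoterless loops gained with IL-4, 52.0% (50.4 to 53.6) were found again after rest, against 56.3% (53.4 to 59.1) of promoter to non-promoter and 57.3% (102 of 178) of promoter to promoter loops. This share was 31.2% in the same bins and 45.5% with lists of equal length, where Memory loops numbered 1406, Transient 1683 and Primed 1679. Memory loops had a median strength of 0.909, Transient loops 0.880 and Primed loops 0.875, so all 3 classes lay below the median loop. Promoterless loops found under IFNG but not under M0[CTR], M2[IL-4] or M2p[pIL-4] numbered 1269, and 401 of them, or 31.6%, were also under pIL-4 + IFNG (33.7% and 31.7% for the kinds with 1 and 2 promoter anchors). These 1269 were part of 3321 under IFNG without a match under M0[CTR]. The rest had a match under M2[IL-4] or M2p[pIL-4], although IFNG cells had no IL-4. Being absent from M0[CTR] and found in another list was thus not particular to IL-4, and persistence was not tested.

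A stricter rule asked that a loop be called in the same bins of the lists of its class and matched within 25 kb in no other list. It left 1078 Transient, 71 Memory and 1507 Primed loops, and 98 in both IFNG lists. By this rule the Memory and Primed loops had no match under pIL-4 + IFNG, the other group rested after IL-4. That absence was set by the rule and is not a result. Loops found again in that second rested list were left out by it. Memory loops and those in both IFNG lists also had to lie in the same bins of both their lists. Their numbers therefore cannot be set beside those of the Transient and Primed loops. The strongest Transient loop lay between Rab4a and Abcb10 on chromosome 8 (123810001 to 123820000 and 123960001 to 123970000) and enclosed Acta1, skeletal muscle actin, with 54 contacts under M2[IL-4] (exact Poisson interval 40.6 to 70.5). The next joined Arvcf and the surroundings of Gp1bb on chromosome 16 with 42 contacts. A Memory loop of 60 kb lay between Ndrg1 and St3gal1, a sialyltransferase, on chromosome 15 (67030001 to 67040000 and 67090001 to 67100000) with 64 contacts under M2[IL-4] and 68 under M2p[pIL-4]. Another joined segments within Arfgef2, an activator of ARF proteins in vesicle traffic, with 79 and 78 contacts. The Primed loops joined segments within Frmd4a, a scaffold protein, with 157 contacts, and spanned the Scd gene cluster of fatty acid desaturases on chromosome 19 with 37 contacts. Those in both IFNG lists were the Lfng loop, with 41 contacts under IFNG and 45 under pIL-4 + IFNG, and a loop of 20 kb within Mgat4a, an enzyme of glycan branching, with 140 and 122. Of these 8 loops, the Lfng loop alone had a convergent pair of CTCF matches, and it had a divergent pair as well.

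Where a promoterless bin pair was called in both lists of a comparison, its counts seldom differed 2-fold. From M0[CTR] to M2[IL-4], 10 of 15247 promoterless pairs were at least 2-fold higher and 4 lower, against 0.0850% and 0.0464% of all pairs called in both. From M0[CTR] to M2p[pIL-4] 17 of 16896 were higher and 3 lower (all pairs 0.119% and 0.0245%). From M2[IL-4] to M2p[pIL-4] 12 of 17629 were higher and 5 lower (all pairs 0.108% and 0.0303%). From M0[CTR] to IFNG 17 of 14833 were higher and 5 lower (all pairs 0.132% and 0.0360%). From M2p[pIL-4] to pIL-4 + IFNG 8 of 19250 were higher and 8 lower (all pairs 0.0465% and 0.0837%). Promoterless pairs were so called in shares of 0.0656%, 0.101%, 0.0681%, 0.115% and 0.0416% upward. These rest on 8 to 17 pairs each, and the shares of all pairs include them. Whether promoterless pairs differ from the others was not tested. Calling removes pairs that fell below the caller's limit in either list, so large differences are under-represented here.

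With IL-4, the promoterless pair highest among those with 60 contacts or more in both lists together and off the chromosome described last joined chr8:25270001-25280000 to chr8:25560001-25570000 in Fgfr1, a fibroblast growth factor receptor. It held 25 contacts under M0[CTR], 55 under M2[IL-4], 41 under M2p[pIL-4], 47 under IFNG and 46 under pIL-4 + IFNG. The log2 ratio of M2[IL-4] to M0[CTR] was 1.14 (exact binomial interval 0.43 to 1.88), and M0[CTR] was the lowest of the 5 lists. This and the pairs that follow were picked for extreme ratios, and their intervals do not allow for that choice. The lowest pair joined segments within Cacna1d, a subunit of a voltage-gated calcium channel, with 46 contacts under M0[CTR], 21 under M2[IL-4], 26 under M2p[pIL-4], 22 under IFNG and 40 under pIL-4 + IFNG (log2 ratio -1.13, -1.95 to -0.36). It was also among the lowest pairs from M0[CTR] to IFNG, at -1.06 (-1.87 to -0.30). Next lowest with IL-4 was a pair around Arl4c, a small GTPase, at 42 contacts under M0[CTR] and 20 under M2[IL-4].

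After IL-4 and rest, a pair around Kctd4 and Gtf2f2 on chromosome 14 held 29 contacts under M0[CTR], 43 under M2[IL-4], 65 under M2p[pIL-4], 34 under IFNG and 46 under pIL-4 + IFNG (log2 ratio of M2p[pIL-4] to M0[CTR] 1.16, 0.51 to 1.85). A pair around Car2, a carbonic anhydrase, held 20 contacts under M0[CTR] and 43 under M2p[pIL-4] (1.10, 0.31 to 1.95). A pair around Srgap2 and Fam72a on chromosome 1 held 52 contacts under M0[CTR] and 24 under M2p[pIL-4] (-1.12, -1.88 to -0.39). A pair at the same locus whose anchors lay 1 and 2 bins away held 25 and 51 in these lists, the opposite direction, and was the lowest pair from M2p[pIL-4] to pIL-4 + IFNG, with 21 in the latter (-1.28, -2.09 to -0.52). A pair around Gadd45g, a stress-response gene, held 40 and 20. From M2[IL-4] to M2p[pIL-4], the highest pair lay around Map4k3 and Tmem178 and held 19 and 41 contacts (1.11, 0.29 to 1.98), with 21 under M0[CTR]. A pair around B3gnt7, a glycosyltransferase, held 34 and 73 contacts (1.10, 0.50 to 1.73), and M0[CTR] with 60 lay near the latter. The lowest pair, around Btbd11, held 43 and 20 contacts and was not called under M0[CTR]. A pair within Megf11 held 52 and 25 contacts (-1.06, -1.81 to -0.34), and 24 under M0[CTR]. M0[CTR] was thus nearer to M2p[pIL-4] at B3gnt7 and Megf11 and nearer to M2[IL-4] at Map4k3.

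With IFNG, the Syk loop held 19 contacts under M0[CTR], 37 under M2[IL-4], 19 under M2p[pIL-4], 51 under IFNG and 29 under pIL-4 + IFNG. Between IFNG and M0[CTR] its log2 ratio was 1.42 (0.64 to 2.27), and its count under M2[IL-4] was above that of M0[CTR] as well. A shorter loop around Irf2bp2, from the left anchor named above to chr8:126870001-126880000, held 20 contacts under M0[CTR], 24 under M2[IL-4], 32 under M2p[pIL-4], 48 under IFNG and 28 under pIL-4 + IFNG (1.26, 0.48 to 2.09). IFNG was the highest list, and pIL-4 + IFNG lay below M2p[pIL-4]. The pair around Irf1, a transcription factor induced by IFNG, held 104 contacts under M0[CTR], 87 under M2[IL-4], 79 under M2p[pIL-4], 43 under IFNG and 54 under pIL-4 + IFNG. Between IFNG and M0[CTR] the log2 ratio was -1.27 (-1.82 to -0.75), and both IFNG lists were the lowest. From M2p[pIL-4] to pIL-4 + IFNG, a pair around Zfp281, a zinc-finger transcription factor, held 25 and 58 contacts (1.21, 0.51 to 1.95) and 46 under IFNG against 25 under M0[CTR], so both IFNG lists lay above the other 3. A pair around Socs5, a suppressor of cytokine signalling, held 62 and 26 contacts (-1.25, -1.97 to -0.57), while M0[CTR] held 55 and IFNG 56.

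Promoterless loops near genes known to be induced by IL-4 were counted in each list. For each gene, loops with an anchor within 100 kb of its TSS were counted and the ratio of lists was divided by the ratio of list lengths. The log2 values use a pseudocount of 1 and understate changes at genes with few loops. A gene with equal counts in both lists takes only the offset of the list lengths. From M2p[pIL-4] to pIL-4 + IFNG that is 0.04, so it counts as higher. In the other comparisons it counts as lower, with -0.12 from M0[CTR] to M2[IL-4] and -0.04 to IFNG. The all-gene medians of these comparisons equal the offsets. Other counts of loops at genes below behave alike. Of 29 IL-4-induced genes with such loops 18 were higher under M2[IL-4] than under M0[CTR], with a median of 0.10, against 44.0% of 16008 genes and a median of -0.12. Macrophage lineage genes, which are expressed without IL-4, had 10 of 15 higher and a median of 0.12 in this comparison, no lower than the IL-4-induced genes. Fn1, fibronectin, had 1 loop under M0[CTR], 13 under M2[IL-4], 8 under M2p[pIL-4], 1 under IFNG and 7 under pIL-4 + IFNG. F10, coagulation factor X, had 5 under M0[CTR], 31 under M2[IL-4], 28 under M2p[pIL-4], 4 under IFNG and 12 under pIL-4 + IFNG (log2 ratio of M2[IL-4] to M0[CTR] 2.29). Its neighbour F7, coagulation factor VII, whose window overlaps, had 5, 31, 27, 3 and 12 in the same order. At Fn1 and F10 the 3 lists that had received IL-4 lay above the other lists.

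Not all IL-4-induced genes had more loops under M2[IL-4]. Atp6v0d2, a subunit of the vacuolar proton pump, had 50 loops under M0[CTR], 19 under M2[IL-4], 43 under M2p[pIL-4], 25 under IFNG and 27 under pIL-4 + IFNG (-1.47). After rest the list's median relative to M2[IL-4] was -0.21, with 12 of 29 genes higher (all genes -0.08 and 44.3%). Arg1, the arginase that marks IL-4 treated macrophages, had 9 loops under M0[CTR], 26 under M2[IL-4], 13 under M2p[pIL-4], 12 under IFNG and 19 under pIL-4 + IFNG. The last, also rested after IL-4, was above M2p[pIL-4]. Slc7a2, which takes up arginine, had 4, 9, 4, 3 and 5 in the same order. Relative to M0[CTR] the median after rest was 0.11, with 17 of 29 genes higher (all genes -0.07 and 44.6%).

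Near IFNG-induced genes the medians with IFNG were above those of all genes, with and without IL-4 priming. From M0[CTR] to IFNG 23 of 29 genes were higher with a median of 0.30, against 43.5% and -0.04 for all genes. From M2p[pIL-4] to pIL-4 + IFNG 23 of 29 were higher with a median of 0.31, against 58.6% and 0.04. Equal counts are lower in the former comparison and higher in the latter, so their shares cannot be set side by side. Ido1, without a loop in either list of the latter, is among its 23 genes. The chemokine genes Cxcl9 and Cxcl10 lie side by side in overlapping windows, and Cxcl9 had 1 loop under M0[CTR], 3 under M2[IL-4], 5 under M2p[pIL-4], 10 under IFNG and 7 under pIL-4 + IFNG. The guanylate-binding proteins of cell-autonomous defence also form a cluster, in which Gbp5 had 7 loops under M0[CTR], 7 under M2[IL-4], 8 under M2p[pIL-4], 23 under IFNG and 33 under pIL-4 + IFNG. Gbp2, at its other end, had 4, 1, 2, 13 and 21 in the same order. Both IFNG lists lay above the other 3 at these genes. Clustered genes are therefore not independent entries of the list. Some IFNG-induced genes had fewer loops in both comparisons. Irgm1 had 28 loops under M0[CTR], 22 under M2[IL-4], 26 under M2p[pIL-4], 18 under IFNG and 20 under pIL-4 + IFNG. Tgtp1, in an overlapping window, had 13, 9, 8, 6 and 7 in the same order.

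**Figure D4:**
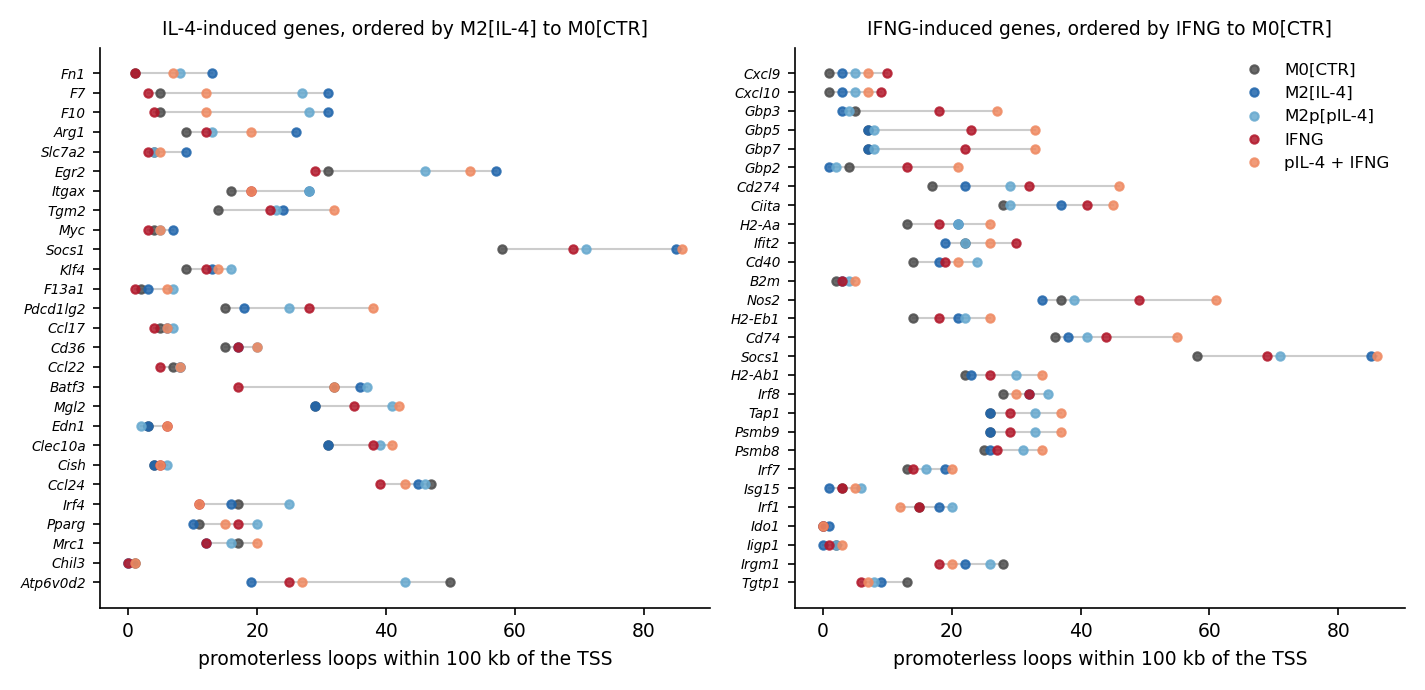
Number of promoterless loops with an anchor within 100 kb of the TSS of each IL-4-induced gene (left) and IFNG-induced gene (right), 1 point per list, genes ordered by the log2 ratio named in each title. Retnla, with no loop in any list, and 3 genes not reported here are left out. F7, F10 and Fn1 stand out in the lists that had received IL-4, and the Gbp genes in both IFNG lists.

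The other gene lists gave the background of such counts. Housekeeping genes had medians of 0.03 from M0[CTR] to M2[IL-4], -0.04 to IFNG and 0.04 from M2p[pIL-4] to pIL-4 + IFNG, with 15 of 28, 12 of 28 and 15 of 28 higher. Inflammatory genes had -0.09, 0.02 and 0.04, with 9, 11 and 12 of 20 higher. Tnfaip3, which restrains NF-kB signalling, had 16 loops under M0[CTR], 25 under M2[IL-4], 28 under M2p[pIL-4], 36 under IFNG and 33 under pIL-4 + IFNG. Genes of other cell types had few loops, a median of 5 under M0[CTR] against 13 at macrophage lineage genes. From M2p[pIL-4] to pIL-4 + IFNG 15 of these 19 genes were higher with a median of 0.32, a share of 78.9% against 79.3% of IFNG-induced genes in that comparison. Pax5, Flt3 and Siglech had equal counts in both lists and are among the 15 by the offset of list lengths alone. Small numbers of loops lie behind that median, since the genes had a median of 5 loops in both lists.

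Promoterless loops and promoter-anchored loops were set side by side at the same genes, a comparison chosen after the data had been seen. Near IFNG-induced genes, the median log2 ratio of promoter-anchored loops was -0.07 from M0[CTR] to IFNG, with 11 of 27 genes higher, where promoterless loops had 0.30 and promoter-anchored loops at all genes -0.02. From M2p[pIL-4] to pIL-4 + IFNG it was 0.20 with 20 of 27 higher (all genes 0.01). Near IL-4-induced genes it was 0.19 from M0[CTR] to M2[IL-4], with 15 of 27 higher (all genes -0.10). Promoterless loops that enclosed the TSS, one anchor on each side, had medians of 0.32 and 0.40 at IFNG-induced genes without and after priming, with 18 and 19 of 27 higher, and -0.04 and 0.04 at all genes. Housekeeping genes had -0.04 and 0.34 by this measure, with 5 and 14 of 18 higher, so the median after priming was above that of all genes at these genes too. The TSS of Gbp7 was enclosed by 4 promoterless loops under M0[CTR], 1 under M2[IL-4], 2 under M2p[pIL-4], 11 under IFNG and 21 under pIL-4 + IFNG. The TSS of F10 was enclosed by 5, 34, 30, 3 and 13 in the same order.

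Tiles of 500 kb showed where along the genome the numbers of promoterless loops differed. Over 2661 tiles the median difference from M0[CTR] was 0 loops under M2[IL-4], 2 under M2p[pIL-4] and 0 under IFNG, and in 5% of tiles the gain reached 9, 15 and 8 or more. The tile of Egr2, a transcription factor of the IL-4 response, at chr10:67500001-68000000 gained most under M2[IL-4], with 57 loops under M0[CTR], 101 under M2[IL-4], 86 under M2p[pIL-4], 58 under IFNG and 85 under pIL-4 + IFNG. The lists that had received IL-4 all lay above the other lists there. Promoter-anchored loops in that tile numbered 16, 19, 16, 18 and 19. The tile of Syk and Nfil3, a transcription factor with a leucine zipper, had 60, 95, 75, 60 and 86 promoterless loops in the same order. The tile of Socs1, which inhibits JAK kinases, had 76, 108, 92, 97 and 132, so that by number each cytokine list exceeded M0[CTR] and pIL-4 + IFNG was the highest. The M2p[pIL-4] list is 29.5% longer than M0[CTR], and scaled for list length their log2 ratio near Socs1 was -0.09. The number after rest is thus no gain beyond list length. Promoter-anchored loops in the Socs1 tile numbered 31, 23, 38, 22 and 17.

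The tile of Atp6v0d2 lost most under M2[IL-4], from 50 promoterless loops to 19, and had 44 under M2p[pIL-4], 25 under IFNG and 27 under pIL-4 + IFNG. Its promoter-anchored loops followed, with 26 under M0[CTR], 12 under M2[IL-4], 27 under M2p[pIL-4], 9 under IFNG and 14 under pIL-4 + IFNG. The tile of the kinase gene Hipk2 had 51 promoterless loops under M0[CTR], 27 under M2[IL-4], 54 under M2p[pIL-4], 29 under IFNG and 35 under pIL-4 + IFNG. A tile without any protein-coding TSS, chr10:8000001-8500000, had 69, 46, 74, 60 and 74. In these 3 tiles M2[IL-4] was the lowest list. The numbers of M2p[pIL-4] were within 6 loops of M0[CTR], but its list is 29.5% longer in promoterless loops, and scaled for list length the log2 ratio of M2p[pIL-4] to M0[CTR] near Atp6v0d2 was -0.59.

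With IFNG the tile of Chd7, a chromatin remodeller, and Rab2a gained most, with 77 loops under IFNG and 63 under pIL-4 + IFNG against 38 in each of the other 3 lists. It held 1 to 5 promoter-anchored loops. The tile of Cdkn1a, a cell cycle inhibitor, and Pim1, a kinase induced by cytokines, had 47 under M0[CTR], 70 under M2[IL-4], 68 under M2p[pIL-4], 75 under IFNG and 85 under pIL-4 + IFNG. The tile of Plcg2, a phospholipase of immune receptor signalling, had 63, 72, 97, 88 and 90. The largest losses with IFNG, a difference of -27 loops from M0[CTR], were at Fam43a and at Sulf2, a sulfatase of heparan sulfate. The Sulf2 tile had 194 under M0[CTR], 209 under M2[IL-4], 255 under M2p[pIL-4], 167 under IFNG and 214 under pIL-4 + IFNG. Both IFNG lists lay below the list they are compared with at Sulf2. The tile of Socs2, another suppressor of cytokine signalling, had 110, 116, 135, 86 and 105. The Irf2bp2 tile had 142, 161, 199, 144 and 155, so that IFNG differed from M0[CTR] by 2 loops and pIL-4 + IFNG from M2p[pIL-4] by -44.

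After rest the tiles of Sulf2, Rreb1 and Irf2bp2 gained most over M0[CTR], by 61, 60 and 57 loops. Scaled for list length, the Sulf2 gain was 3.68 loops and the Irf2bp2 gain 15.0, while that of Rreb1, a transcription factor downstream of Ras, was 30.5. Rreb1 had 100 loops under M0[CTR], 127 under M2[IL-4], 160 under M2p[pIL-4], 117 under IFNG and 137 under pIL-4 + IFNG. After rest 407 of 2661 tiles held fewer loops than under M0[CTR], by 10 at most. The tile of the interleukin-1 receptor genes Il1r1 and Il1r2 had 55 under M0[CTR] and 46 under M2p[pIL-4], and the tile of the replicative histone genes on chromosome 3 had 71 and 61.

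**Figure D5:**
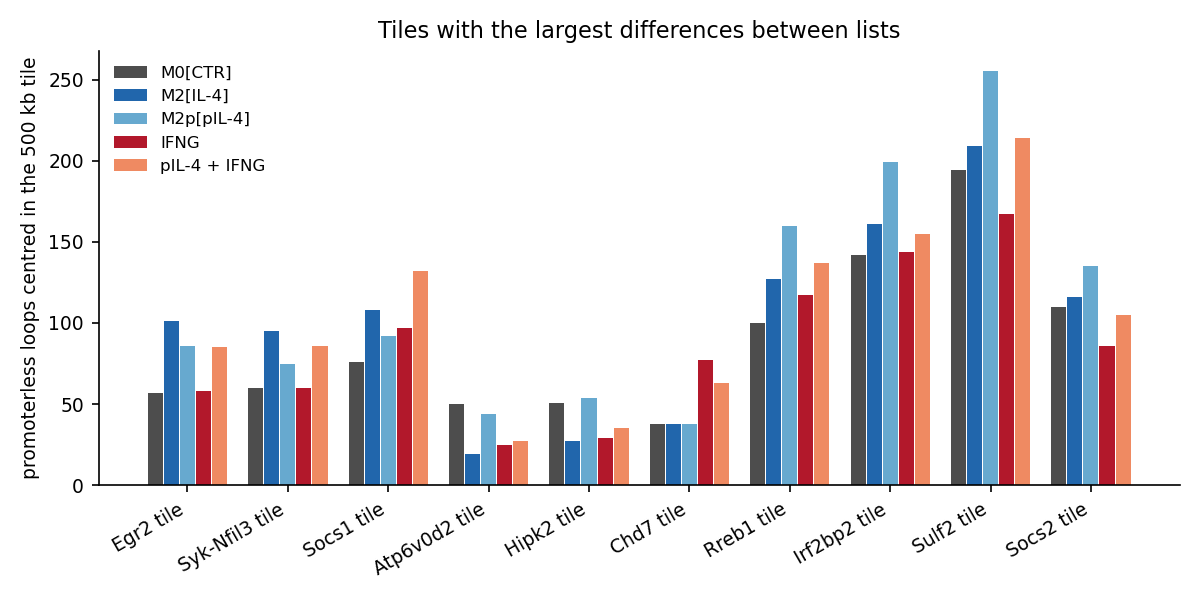
Number of promoterless loops whose midpoint lay in each of 10 of the 500 kb tiles ranked first by difference between lists, named by a gene in the tile (bars, 1 colour per list, axis from 0). M2[IL-4] was highest at Egr2 and Syk, both IFNG lists were highest at Chd7, and M2p[pIL-4] was highest at Rreb1, Irf2bp2 and Sulf2.

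On chromosome 18, pairs between the surroundings of Malt1, a protease of immune signalling, and Oacyl had the highest ratio in both of 2 comparisons. The longer pair, of 260 kb, held 23 contacts under M0[CTR], 53 under M2[IL-4], 37 under M2p[pIL-4], 47 under IFNG and 43 under pIL-4 + IFNG (log2 ratio of M2[IL-4] to M0[CTR] 1.20, 0.47 to 1.98). The pair of 240 kb from the same left anchor held 21, 21, 19, 22 and 45, and the log2 ratio of the last value to that of M2p[pIL-4] was 1.24 (0.44 to 2.10). The former was lowest under M0[CTR], and the latter was high under pIL-4 + IFNG alone.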

How the data were processed

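Hi-C of mouse bone marrow-derived macrophages gave 5 loop lists, 1 for each group of 2 samples, read as both replicates merged. The lists were deposited by the authors with, per line, a pair of 10 kb bins and a whole-number count of contacts, which carried no apparent normalization. Per the labels and methods, reads were mapped with Bowtie2 in HiC-Pro against mm10 and HOMER is named too. Loop calling is described with the Juicer tools at a coarser resolution than these bins, so the caller and threshold of the 10 kb lists are not given in the sources used here. The read depth is unknown from the lists. The contacts in promoterless loops, 1101743 to 1457718 per list, are the called part only. Counting precision per loop is that of a median of 31 contacts. Lists were assigned to groups by the sample titles, and no column was left unmapped.

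Promoterless loops were taken by the TSS of 20807 autosomal protein-coding genes of GENCODE M21. Lists were matched within 25 kb to loops of any kind and span. Shares carry 95% Wilson intervals, counts exact Poisson intervals and ratios exact binomial intervals. Kinds of loops were compared by an exact sign-flip test over the 5 lists, which share many loops and are not independent experiments, with Benjamini-Hochberg adjustment over 12 tests. CTCF matches were searched in GRCm38. Gene lists used anchors within 100 kb of a TSS. The members, gene lists and tests were chosen with earlier results of these data known. Genes and loops were named by rank: the 3 pairs strongest in all lists, the 2 strongest of each class, the 2 highest and 2 lowest ratios, the 3 largest gains and losses of tiles, up to 5 genes of each list by size of log2 ratio, and the genes beside them, though not every pick is described and some genes of the lists, which stay in the counts and medians, are not reported here. Egr2, Gbp7 and other genes of the lists named outside these ranks were chosen after their values were seen. Matching, kinds, gene counts and the consensus search were tested on simulated data. Alternatives were other TSS sets, wider anchors, merged or stronger loops, lists of equal length, other matching distances, folds, consensus rules, gene distances and pseudocounts. Scripts ran in Python 3.11.15 with scipy 1.17.1 for intervals, matplotlib 3.10.9 for plots, and the table libraries pandas 2.3.3 and numpy 2.4.6.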

Additional observations from a re-analysis of the deposited data

Results flagged for a closer look

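Near macrophage lineage genes, the effect of IFNG on the number of promoterless loops lay on opposite sides of that of all genes without and after IL-4 priming. The median log2 ratio minus that of all genes was 0.16 from M0[CTR] to IFNG and -0.17 from M2p[pIL-4] to pIL-4 + IFNG. It was singled out because 1 list moved one way and the other list the opposite way, and the difference was not tested. In the former comparison 11 of 15 genes were higher, and in the latter 6 of 15. Csf1r, the receptor of M-CSF, had 15 loops for M0[CTR], 24 for IFNG, 21 for M2p[pIL-4] and 29 for pIL-4 + IFNG, and so was higher in both. Runx1, a transcription factor of blood cell development, had 11 for M0[CTR], 17 for IFNG, 22 for M2p[pIL-4] and 10 for pIL-4 + IFNG. With anchors within 50 kb of a TSS the list's median was 0.04 in the primed comparison and 0.07 in the other, so the negative value depends on the distance used.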

How the results depend on the processing

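No paired analysis was possible because the replicates of a group share 1 merged list, and leaving out replicates was not run for the same reason. Of the alternatives run on the main values, 51 stayed within counting error or 1.5 times and 53 moved. The numbers of promoterless loops in M0[CTR], M2[IL-4], M2p[pIL-4], IFNG and pIL-4 + IFNG moved to 16841, 18433, 22158, 17400 and 21357 when neighbouring bins also had to be free of a TSS, and to 8193, 8954, 10147, 8547 and 9835 when touching pairs were merged. The share matched in M0[CTR], of M2[IL-4], M2p[pIL-4], IFNG and pIL-4 + IFNG loops, was 88.9%, 87.8%, 89.5% and 86.9%. It became 45.3%, 42.2%, 46.7% and 42.0% in the same bins, 95.2%, 94.7%, 95.4% and 94.1% within 50 kb, 90.6%, 89.7%, 91.3% and 88.7% for loops of 20 contacts or more, 89.9%, 90.1%, 89.9% and 89.1% with lists of equal length, and 87.3%, 85.9%, 88.3% and 85.5% with neighbouring bins free of a TSS. Transient, Memory and Primed loops numbered 12668, 5732 and 17367 in the same bins, 639, 973 and 1017 within 50 kb, and 1156, 1194 and 1821 with neighbouring bins free. Transient loops of 20 contacts or more numbered 1196, and Primed loops 1679 with lists of equal length. The share found again after rest was 31.2% in the same bins, 60.4% within 50 kb, 55.7% for loops of 20 contacts or more and 45.5% with lists of equal length. Promoterless pairs that differed 1.5-fold were 3.84%, 3.84%, 3.81%, 3.94% and 3.70% over the comparisons in the order of the report. Those that differed 2-fold after centring were 0.0710%, 0.0567% and 0.0876% in the comparisons of M2p[pIL-4] to M0[CTR], M2p[pIL-4] to M2[IL-4] and IFNG to M0[CTR], instead of 0.118%, 0.0964% and 0.148%. The difference to promoter to non-promoter loops in the share of all 5 lists stayed between -4.91 and -1.34 points. Convergent minus divergent CTCF pairs stayed above 0, at 0.705 points with no mismatch and 22.5 with neighbouring bins. The medians near IL-4-induced and IFNG-induced genes kept their sign in the comparisons named, and without genes of another list were 0.07 and 0.33 for M2[IL-4] and IFNG over M0[CTR]. Medians near 0 turned sign within 50 kb of the TSS, at inflammatory genes from -0.09 to 0.01 for M2[IL-4] over M0[CTR] and from 0.02 to -0.04 for IFNG over M0[CTR], at housekeeping genes from 0.03 to -0.12 and at macrophage lineage genes from 0.12 to -0.04 for M2[IL-4] over M0[CTR], and at the latter from -0.13 to 0.04 for pIL-4 + IFNG over M2p[pIL-4]. Other medians close to 0 turned as well. At that distance the median was 0.36 at IL-4-induced genes for M2[IL-4] over M0[CTR], and at IFNG-induced genes 0.26 without and 0.32 after priming. For genes of other cell types the primed median of 0.32 became 0.04.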
